A study of Mus musculus with 2 samples.

Results

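The cells described here are 150 cells of the mouse aortic adventitia that held at least 2 of 7 genes known from nonclassical monocytes. The 7 genes were Ace, Treml4, Spn, Cd300e, Adgre4, Eno3 and Pou2f2, and each counted from 1 UMI (unique molecular identifier, 1 counted RNA molecule). A member also had 300 to 6500 detected genes, at most 5% mitochondrial UMIs and at least 2 UMIs summed over the myeloid genes Csf1r, Lyz2 and Cx3cr1. It had 0 UMIs of the classical monocyte genes Ly6c2, Chil3 and Vcan, 0 of the lymphocyte genes Cd3d, Cd3e, Cd3g, Cd79a and Cd79b, and 0 of the neutrophil genes Cxcr2 and Retnlg. Members were thus chosen by measured UMI counts of these genes. The rule found 32 of 306 filtered cells at steady state, a share of 10.5% with an exact Clopper-Pearson 95% interval of 7.26 to 14.4%. It found 118 of 4198 filtered cells after angiotensin II (AngII), a share of 2.81% (2.33 to 3.36%), so that the members were 150 of 4504 cells in all. The values that chose the members are given as a description, and all intervals cover counting error only.

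The study captured single CD45-positive cells in droplets and sequenced the ends of their polyadenylated RNA, to describe immune cells of the vessel wall at rest and in inflammation. Both groups were RankCreRosa26eYFP mice of 16 weeks on a C57BL/6 background. The steady state library pooled 3 untreated animals, and the AngII library pooled 2 animals that received 1.8 µg/kg/min of AngII for 10 days from an osmotic pump. In these mice Cre is driven from the Rank (Tnfrsf11a) gene, which marks macrophages derived from yolk sac progenitors and their progeny with eYFP, and a bead step for CD45 came before the sorter. Each condition was 1 library, so no difference between conditions has a replicate check.

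The libraries differed in depth. The steady state library had 346 barcodes and 4009678 UMIs, with a median of 9105 UMIs per filtered cell. The AngII library had 4419 barcodes and 20481854 UMIs, with a median of 1092 UMIs, and 44.6% of its barcodes had fewer than 1000 UMIs, against 3.47% at steady state. The libraries shared 0 barcodes. The members were among the deeper cells, with a median of 16781 UMIs at steady state and 13228.5 on AngII.

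Nonclassical monocytes patrol the inner surface of blood vessels and are known for low Ly6C, high CX3CR1 and the integrin LFA-1, of which Itgal encodes a subunit. They arise from classical Ly6C-high monocytes, need the nuclear receptor NR4A1 and the factor C/EBPβ, and are known for sensing and clearing damaged endothelium. Ace encodes the angiotensin-converting enzyme, Treml4 and Cd300e encode immune receptors of the myeloid surface, Spn encodes the sialoglycoprotein CD43, Adgre4 an adhesion receptor, Eno3 a glycolytic enolase and Pou2f2 a transcription factor that B cells also use.

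Most members had 0 UMIs of the genes that the working name of these cells is taken from. At steady state 21 of 32 members (65.6%) had 0 UMIs of Ace, Treml4 and Cd300e together, and on AngII the count was 76 of 118 (64.4%). Of the AngII members 17 had fewer than 1000 UMIs, and in such cells 0 UMIs does not show that a gene was absent. All 3 of these genes were found in 7 members at steady state and in 2 on AngII. The data therefore went against that name for most members, and the cells are called here by the number of rule genes they held.

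The number of rule genes split the members unevenly. At steady state 16 members held 2 rule genes, 6 held 3, 1 held 4, 3 held 6 and 6 held 7. On AngII 80 members held 2, 29 held 3, 5 held 4, 2 held 5 and 2 held 7. Members with 4 or more rule genes were thus 10 of 32 at steady state and 9 of 118 on AngII. The class of 4 or more is a range of a score and not a cell type, and 6 steady state members with 3 rule genes and 1 with 4 lay next to its border, as did 29 and 5 on AngII.

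Depth went along with the count of rule genes at its lower end. Among AngII cells that met every other condition, 1.78% of those with 500 to 1000 UMIs were members (1.04 to 2.84%), against 39.3% of those with 20000 or more (29.1 to 50.3%). At steady state the shares were 21.4% from 2000 to 5000 UMIs (4.66 to 50.8%), 14.3% from 5000 to 10000 (5.43 to 28.5%), 20.8% from 10000 to 20000 (10.5 to 35.0%) and 37.1% from 20000 (21.5 to 55.1%), with overlapping intervals and no steady rise. Members with 4 or more rule genes had lower median depths than members with 2, at 7585.5 against 16896 UMIs at steady state and 6978 against 11259 on AngII. On AngII they were 0 of 953 cells with 500 to 1000 UMIs, 5.48% of those with 5000 to 10000 and 2.25% of those with 20000 or more, so the shallowest cells held none. When each cell was thinned to 1000 UMIs before the rule was applied, 11 of 303 steady state cells passed, and all 11 held 4 or more rule genes at full depth. Only 8 of the 11 were members at full depth, and the other 3 held Ly6c2, Chil3 or Vcan UMIs there. On AngII 18 of 2288 cells passed after thinning, and 6 of them held 4 or more at full depth. Of the 18 cells 13 were members at full depth, and of the 6 cells 3 were. The others held UMIs at full depth that the rule excludes. Among AngII cells with at least 1000 genes the members were 6.38%, in place of 2.81% of all filtered cells.

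**Figure D1:**
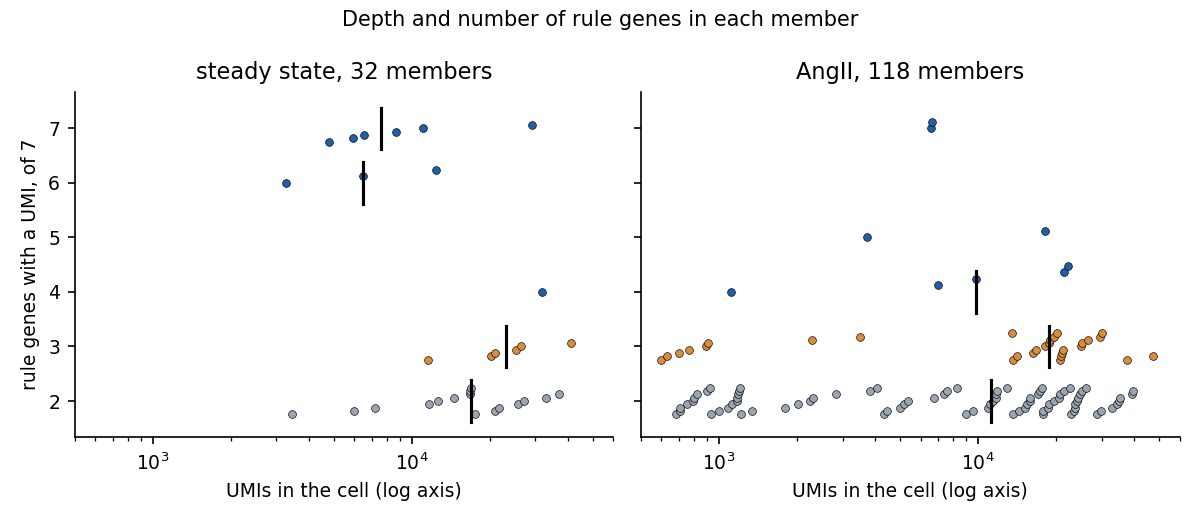
UMIs per member (log axis) by the number of rule genes it held, with 1 point per cell, steady state and AngII in separate panels, and a bar at the median where there are at least 3 cells. Members with 2 or 3 rule genes spread up to the deepest cells, while the medians of members with 6 or 7 at steady state lie at 6508 and 7585.5 UMIs.

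Many cells stood just outside the rule. Of the cells that met every other condition, 63 at steady state (median 10934 UMIs) and 421 on AngII (median 1656 UMIs) held 1 rule gene, and 48 and 1282 held 0. The condition on Ly6c2, Chil3 and Vcan kept out 14 cells with at least 2 rule genes at steady state and 85 on AngII, of which 2 and 13 had exactly 1 UMI of these genes.

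The pair of rule genes that brought in members with 2 was most often Spn with Pou2f2. This pair accounted for 9 of 16 such members at steady state and 29 of 80 on AngII, and Adgre4 with Pou2f2 for 4 and 20. Both Spn and Pou2f2 were also detected in the cells called lymphocytes here, filtered cells outside the members with at least 2 UMIs of Cd3d, Cd3e and Cd3g together or of Cd79a and Cd79b together. This class was mixed, since C1qa had a UMI in 40.3% of it on AngII. Spn had a UMI in 32.1% of 106 lymphocytes at steady state (median 6993 UMIs) and 17.9% of 474 on AngII (median 1698 UMIs). Pou2f2 had one in 56.6% and 35.0% of them. Leaving out both genes, 9 members at steady state and 29 on AngII held none of Ace, Treml4, Cd300e, Adgre4 and Eno3.

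The level of each rule gene is given in CPM, its UMIs summed over a group and scaled to 1000000 UMIs of that group. Ace stood at 676 CPM in steady state members with 4 or more rule genes (537 to 840), with a UMI in 9 of 10 cells, and at 238 CPM on AngII (151 to 357), in 6 of 9 cells. Members with 2 rule genes had 0 UMIs of Ace at steady state, which allows up to 10.4 CPM, and 5.96 CPM on AngII. Ace is 1 of the genes that form this class, so these levels describe the class and test nothing. On AngII an Ace UMI was found in 6 members with 2 rule genes, 5 with 3 and 6 with 4 or more. Lymphocytes had 1.02 and 7.86 CPM of Ace. Macrophages with at least 2 of Lyve1, Folr2, Cbr2 and Cd163 had 0 Ace UMIs in both libraries. These macrophages were also chosen for fewer than 2 rule genes and 0 UMIs of Ly6c2, Chil3 and Vcan. They met the members' conditions on myeloid, lymphocyte and neutrophil genes. The limit on rule genes by itself restricts Ace in this class. After thinning every cell to 1000 UMIs, Ace was detected in 3 of 10 and 2 of 9 members with 4 or more with 0 cells left out, against 0% and 0.617% of lymphocytes with 1 and 150 left out.

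Treml4 and Cd300e had the same order. Treml4 was at 200 CPM at steady state and 196 CPM on AngII in members with 4 or more, and at 3.46 and 12.9 CPM in members with 2. Cd300e was at 292 and 227 CPM in members with 4 or more, and at 0 UMIs and 4.97 CPM in members with 2. In lymphocytes Treml4 was at 1.02 and 7.86 CPM, and Cd300e at 0 UMIs and 3.42 CPM. On the assembly GRCm38, Ace lies on chromosome 11 from 105967945 to 105989964, Cd300e on chromosome 11 from 115051917 to 115062177, and Treml4 on chromosome 17 from 48264295 to 48275360 (GENCODE M21).

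Spn, Adgre4, Eno3 and Pou2f2 were less tied to the upper class on AngII. At steady state Spn stood at 709 CPM in members with 4 or more and 76.1 CPM in members with 2, and on AngII at 227 and 53.7 CPM. Adgre4 stood at 476 and 38.0 CPM at steady state and at 134 and 27.8 CPM on AngII. Pou2f2 stood at 826 and 128 CPM at steady state and at 414 and 188 CPM on AngII. Eno3 stood at 325 and 6.91 CPM at steady state, and on AngII at 93.0 and 56.6 CPM, where 1 member with 2 rule genes held 33 of the 57 Eno3 UMIs of its class. These levels follow from the rule and describe which members carried it.

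Genes that the rule did not use were then compared between members with 4 or more rule genes and members with 2, within each library. The comparison asks what the members share beyond the genes that chose them. At steady state 84 of 873 tested genes (9.62%) were at least 2 times higher in members with 4 or more, and 97 (11.1%) were at least 2 times lower. A gene was tested where at least 20 UMIs would fall in the smaller group if both were at 1 level, and the rule genes were left out. The spread between single cells is not covered by the intervals.

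At steady state the members with 4 or more rule genes had high levels of further genes known from nonclassical monocytes. Gngt2, a G protein subunit of leukocytes, was at 1051 CPM against 3.46 CPM in members with 2, a ratio of 304 (53.6 to 12106) that rests on 1 UMI in the lower group. Itgal was at 693 CPM against 27.7 CPM, a ratio of 25.0 (12.1 to 59.9), and it had a UMI in 9 of 10 cells. Cebpb, which encodes C/EBPβ, was at 3296 CPM against 353 CPM, a ratio of 9.35 (7.50 to 11.7). Of the list of nonclassical monocyte genes outside the rule, 12 could be tested, 9 were at least 2 times higher and 0 lower, with a median ratio of 3.43 against 0.937 over all tested genes. The summed level of this list was 14410 CPM against 3696 CPM.

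Other members of that list add to the description. The tumour necrosis factor receptor gene Tnfrsf1b was at 484 CPM against 51.9 CPM, and Stap1, a signalling adaptor, at 709 CPM against 100 CPM. The lectin receptor gene Clec4a3 was at 643 CPM against 142 CPM. Nr4a1 was at 1043 CPM against 553 CPM, a ratio of 1.89 (1.48 to 2.40) that did not pass 2 times. Fcgr4, Dusp16, Pglyrp1 and S1pr5 had too few UMIs to be tested. Fcgr4 was at 275 CPM against 17.3 CPM, Dusp16 at 250 against 27.7, Pglyrp1 at 375 against 13.8, and S1pr5, a receptor for monocyte exit from bone marrow, at 133 CPM against 0 UMIs.

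The lists of transcription factors and adhesion genes share genes with the nonclassical list, among them Cebpb, Klf2, Klf4 and Itgal, so these count in both. Of 11 tested transcription factors 4 were at least 2 times higher in members with 4 or more rule genes, namely Cebpb, Klf2 (1360 against 584 CPM), Klf4 (1235 against 581 CPM) and Zeb2 (1202 against 553 CPM). With every member thinned to 1000 UMIs the ratio of Klf4 was 0.847 in place of 2.13. Its thinned UMIs were too few to be tested, so no direction at equal depth is read from it. Irf8, which directs dendritic cells, was the 1 that was at least 2 times lower, at 117 against 408 CPM. Of 8 tested adhesion genes 3 were at least 2 times higher, Itgal, Itga4 (868 against 156 CPM) and Itgb2 (659 against 221 CPM). Itgb2 encodes the partner chain of the Itgal product, so the genes of both LFA-1 chains were on the higher side.

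Among the 12 genes ranked highest by the lower bound of the ratio were also Msrb1 (601 against 34.6 CPM), Lst1 (1151 against 100 CPM), Plac8 (676 against 65.7 CPM), Samsn1 (576 against 62.2 CPM), Ear2 (834 against 107 CPM) and Stk10 (501 against 69.1 CPM). Plac8 is a gene of classical monocytes, and 7 of the 10 cells held it. Fn1, from the same list of classical monocyte genes, was at 1644 against 456 CPM, and without the cell that held most of its UMIs its ratio was 0.0249 in place of 3.60. The Fn1 level of this class thus rested on 1 cell.

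Antigen presentation genes had the opposite order at steady state. All 6 tested genes of the MHC class II list were at least 2 times lower in members with 4 or more rule genes, with a median ratio of 0.314 against 0.937 over all tested genes. H2-Eb1 was at 1652 against 6928 CPM, H2-Ab1 at 2929 against 9521 CPM and Cd74, the invariant chain, at 8344 against 22377 CPM. The 3 deepest of the 10 cells held 1691 of the 1982 UMIs of this list, and the other 7 were at 1241 CPM for H2-Ab1 and 3359 CPM for Cd74, lower still. Of the type 2 dendritic cell list 3 genes could be tested and 2 were at least 2 times lower, while Mgl2, the most abundant of the list, was at 559 against 1034 CPM and did not pass. Clec10a was at 8.34 against 339 CPM, with a UMI in 1 of the 10 cells, and Cd209a at 50.1 against 581 CPM, also in 1 of the 10. Slamf7 had 0 UMIs against 249 CPM, at least 9.94-fold lower at a floor of 3 UMIs over the group, which is the floor of every such bound here, and 7.88-fold by the exact interval.

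Other single genes were also among the named genes with the lowest ratios at steady state. Tuba1b was at 175 against 902 CPM, Tubb5 at 159 against 764 CPM, Tagln2 at 184 against 844 CPM and the histone gene H2az1 at 367 against 1646 CPM. Of the list of cycling genes 3 could be tested and all 3 were at least 2 times lower, with Top2a at 0 UMIs against 301 CPM and Stmn1 at 8.34 against 498 CPM. Further named genes were Fgl2 (16.7 against 280 CPM), Wfdc17 (142 against 1027 CPM), Ckb (58.4 against 477 CPM) and Ifi30 (134 against 729 CPM). The UMIs of the cycling genes were unevenly held. In members with 2 rule genes 1 cell held 218 of the 440 UMIs of this list, while 8 of 16 had at least 3 UMIs. With every member thinned to 1000 UMIs 70 genes could be tested at steady state, of which 3 were at least 2 times higher and 11 lower. Of the 84 genes that were higher at full depth only Retnla could be tested after thinning, at a ratio of 0.700, so the higher side was not checked at equal depth. Of the 97 lower genes 6 could be tested, and all 6 were at least 2 times lower.

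On AngII the same comparison gave fewer genes past 2 times. Of 683 tested genes 24 (3.51%) were at least 2 times higher in members with 4 or more rule genes and 49 (7.17%) were at least 2 times lower. Of the nonclassical monocyte genes outside the rule 7 could be tested and 4 were at least 2 times higher, Cebpb (1964 against 696 CPM), Klf2 (837 against 305 CPM), Clec4a1 (496 against 202 CPM) and Clec4a3 (765 against 294 CPM). The list had a median ratio of 2.46 against 0.981 over all tested genes, and a summed level of 8519 against 3569 CPM.

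Genes of that list with too few UMIs to be tested on AngII are given as levels. Itgal was at 403 against 31.8 CPM, Gngt2 at 569 against 163 CPM, Fcgr4 at 362 against 84.5 CPM, Dusp16 at 238 against 19.9 CPM and Pglyrp1 at 227 against 35.8 CPM. Each was higher in members with 4 or more rule genes, the same order as at steady state. Nr4a1 was at 310 against 231 CPM, a ratio of 1.35 (0.888 to 1.97), and did not differ beyond counting error.

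**Figure D2:**
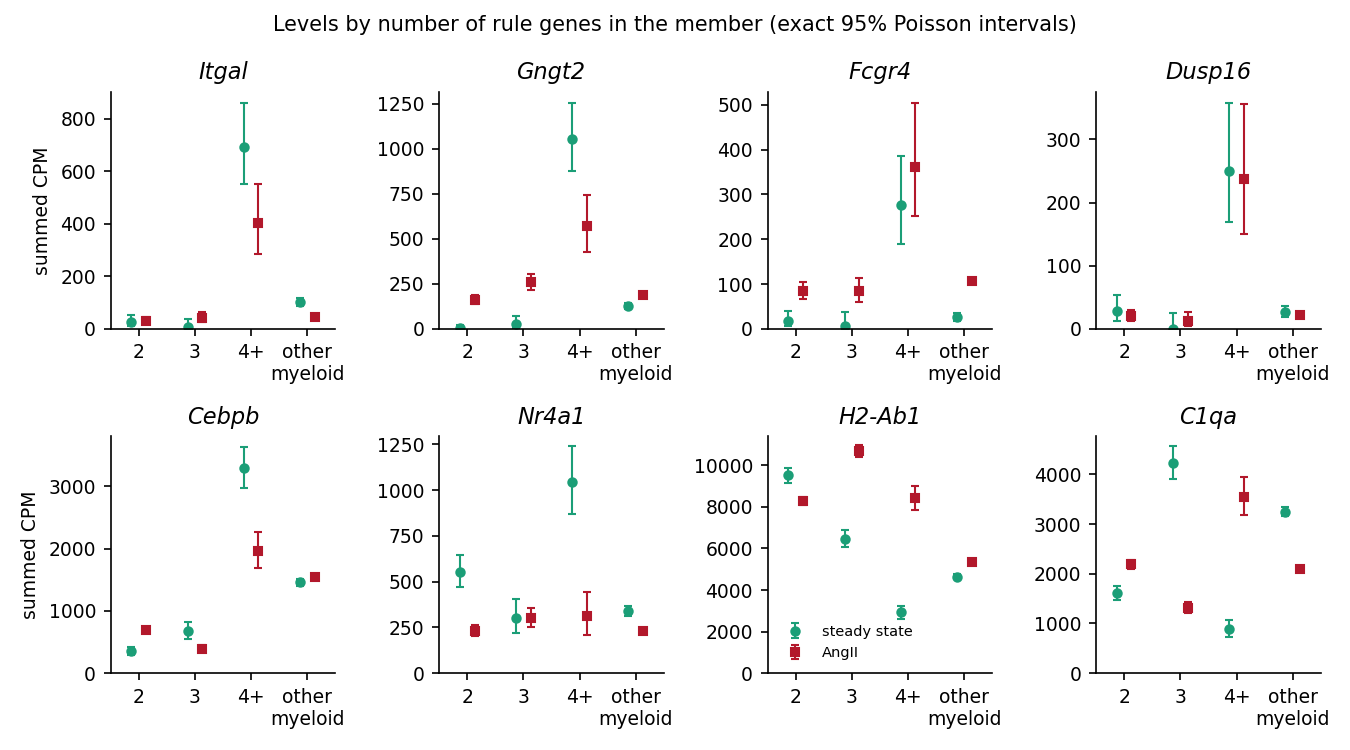
Summed level in CPM (linear axes from 0, exact Poisson 95% intervals) of 8 genes that the rule did not use, in members with 2, 3 and 4 or more rule genes and in other myeloid cells, at steady state and on AngII. Itgal, Gngt2, Fcgr4, Dusp16 and Cebpb are highest in members with 4 or more in both libraries, while H2-Ab1 is lower there at steady state (2929 CPM), and its AngII level (8405 CPM) comes from 3 cells that held 792 of 813 UMIs.

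The summed MHC class II level on AngII rested on 3 deep cells. Of 7 tested genes 0 passed 2 times in either direction, and the summed level was 47278 CPM in members with 4 or more rule genes and 49182 CPM in members with 2. The 3 deepest of the 9 cells, each with 4 or 5 rule genes, held 4451 of the 4573 UMIs, and the other 6 cells stood at 3503 CPM, lower than members with 2 as at steady state. H2-Ab1 was detected after thinning in 44.4% of members with 4 or more and 85.5% of members with 2. C1qb was at 5169 against 2543 CPM, with 463 of 500 UMIs in the 3 deep cells and 1062 CPM in the other 6, so its direction turned without them. The summed nonclassical list stood at 14011 CPM in the other 6, but Clec4a3 had 57 of 74 UMIs in the 3 deep cells and was at 488 against 294 CPM in the other 6, under 2 times. This split was made after the values were seen.

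Lst1 (1334 against 281 CPM), Fyb (972 against 272 CPM), Pla2g7 (558 against 191 CPM), Samhd1 (848 against 318 CPM), Pltp (1261 against 521 CPM), Ifi27l2a (2574 against 1266 CPM), Ftl1 (6937 against 3682 CPM) and Cybb (734 against 329 CPM) were also named on the higher side of the AngII comparison, of which Ftl1, at a ratio of 1.88, did not pass 2 times. Pltp also rested on the 3 deep cells, which held 105 of its 122 UMIs, and the other 6 cells were at 488 CPM. Ifi27l2a was at 2354 CPM in those 6, also under 2 times.

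Cytokine genes lay on both sides in that comparison. Of the cytokine list 9 genes could be tested, with a median ratio of 0.746, 4 were at least 2 times lower and Cxcl2 (972 against 466 CPM) was at least 2 times higher, while Ccl6, the most abundant, was at 1468 against 1407 CPM. Ccl2 was at 31.0 against 564 CPM, Ccl7 at 31.0 against 465 CPM and Ccl4 at 51.7 against 381 CPM. Ccl5 and Cd209a had 0 UMIs in members with 4 or more rule genes, at least 8.46-fold and 8.43-fold lower than in members with 2 at the floor, and 6.83-fold and 6.80-fold by the exact intervals. Fabp5 (20.7 against 664 CPM), Ifitm1 (20.7 against 608 CPM), Cd63 (31.0 against 384 CPM), Id2 (82.7 against 542 CPM), Pf4 (238 against 898 CPM), H2az1 (765 against 2307 CPM) and F13a1 (72.4 against 345 CPM) were also named on the lower side. Both tested type 2 dendritic cell genes, Cd209a and Mgl2 (165 against 489 CPM), were at least 2 times lower. With every member thinned to 1000 UMIs 51 genes could be tested on AngII and 1 passed 2 times, on the lower side. Of the 24 higher genes at full depth only C1qb could be tested after thinning, at a ratio of 1.28. Of the 49 lower genes only Crip1 could be, at 0.215, so most genes of both sides were not checked at equal depth. With 5 or more rule genes as the upper class the count past 2 times was 43 in place of 73.

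Shares of cells with a UMI of Gngt2 or Itgal had the same order after thinning to 1000 UMIs. At steady state Gngt2 was detected in 9 of 10 members with 4 or more rule genes and in 7 of 10 after thinning, and Itgal in 9 of 10 and 5 of 10. On AngII Gngt2 was detected in 8 of 9 and in 5 of 9 after thinning, and Itgal in 4 of 9 and 3 of 9, with 0 cells left out in either library. The thinned share of lymphocytes was 0.952% for Gngt2 and 4.76% for Itgal at steady state with 1 cell left out, and 7.41% and 4.32% on AngII with 150 left out. These lymphocytes had unthinned shares of 20.8% and 31.1% at a median of 6993 UMIs, and 24.7% for each gene at a median of 1698 UMIs. Nr4a1 on AngII was detected in 77.8% of members with 4 or more and 57.5% of members with 2. After thinning it was in 2 of 9 (22.2%, 2.81 to 60.0%) and 18 of 69 (26.1%, 16.3 to 38.1%), with 0 and 11 left out. At steady state the thinned shares were 70.0% (34.8 to 93.3%) and 25.0% (7.27 to 52.4%). The intervals overlap in both libraries, so no order of Nr4a1 is read after thinning.

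Single cells show that the class of 4 or more rule genes was itself mixed. The per-cell median of the nonclassical list outside the rule was 18701 CPM at steady state and 11701 CPM on AngII, against 3188 and 3992 CPM in members with 2. The per-cell median of the MHC class II list was 537 CPM at steady state and 8992 CPM on AngII, against 46072 and 29523 CPM in members with 2. At least 10000 CPM of the nonclassical list together with less than 1000 CPM of MHC class II genes was found in 6 of 10 steady state and 4 of 9 AngII members with 4 or more, and in 1 of 16 and 1 of 80 members with 2. These lines were drawn after the values were seen. The median number of UMIs of natural killer, dendritic cell and C1q genes was 4.5 and 10 in members with 4 or more, and 90 and 67 in members with 2. Scaled to depth the medians were 643 against 7003 CPM at steady state and 7050 against 6818 CPM on AngII, but on AngII the lists went opposite ways. There C1q genes were at 11166 against 6216 CPM, with most of them in the 3 deep cells, type 2 dendritic cell genes at 341 against 1193 CPM, type 1 at 165 against 584 CPM, natural killer genes at 51.7 against 375 CPM, and migratory dendritic cell genes at 0 UMIs against 437 CPM.

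**Figure D3:**
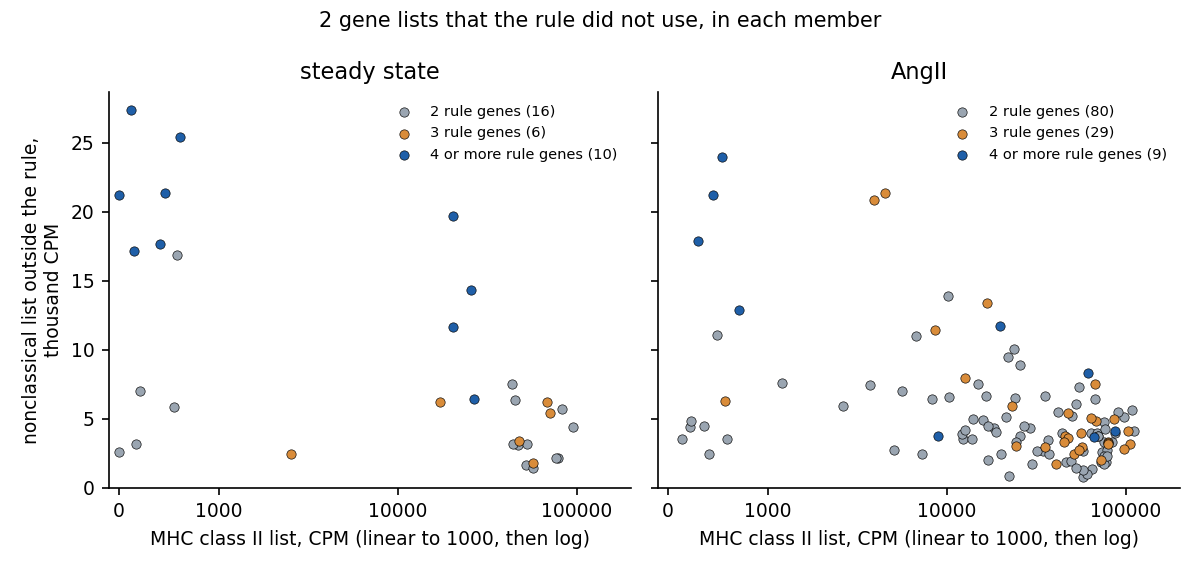
Each point is 1 member, with the CPM of the MHC class II list on the horizontal axis (linear to 1000, then logarithmic) and the CPM of nonclassical monocyte genes outside the rule (axis in units of 1000 CPM) on the vertical axis, coloured by the number of rule genes. Of the members with 4 or more rule genes 6 of 10 at steady state and 4 of 9 on AngII lie at the upper left, and the others lie further right.

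The cells with all 7 rule genes give the clearest examples. An AngII cell of 6646 UMIs held 10 UMIs of Ace, 8 of Treml4, 10 of Cd300e, 19 of Itgal and 10 of Gngt2, and 0 of H2-Ab1, C1qa, C1qb, Ccr2 and EYFP. A second AngII cell, of 6595 UMIs, held 8 UMIs of Ace, 9 of Itgal and 12 of Gngt2, and 1 of H2-Ab1. At steady state a cell of 8655 UMIs held 10 UMIs of Ace, 10 of Itgal and 18 of Gngt2, and 0 of H2-Ab1 and C1qa. Of the 9 steady state cells with 6 or 7 rule genes, 6 held at most 1 UMI of H2-Ab1 and at most 2 of C1qa and C1qb together, as did 2 of 2 such cells on AngII.

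Other cells with 4 or more rule genes held transcripts of several kinds. The deepest steady state cell with 7 rule genes had 29005 UMIs, 25 of Ace and 27 of Itgal, and also 107 of H2-Ab1, 69 of C1qa and 12 of EYFP. On AngII 3 cells with 4 or 5 rule genes had between 18174 and 22279 UMIs, 227 to 289 UMIs of H2-Ab1 and 0 of Itgal. Whether such barcodes hold 1 cell or more was not tested, since no doublet caller was run.

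The members were also placed among all filtered cells by clustering each library with the rule genes left out. At steady state 5 clusters were found and members lay in 4 of them. The largest number, 12 of 32 (37.5%, 21.1 to 56.3%), lay in the cluster led by Lyve1, Folr2 and Cbr2, and 10 lay in the one led by Lyz1, Cxcl9 and Fn1. The cluster of 28 cells led by S100a8, Gngt2 and Plac8 held 9 members, each with 6 or 7 rule genes, and 0 of the members with 2 or 3.

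That steady state cluster gathered almost every cell with many rule genes, also outside the rule. Of its 28 cells 17 held 4 or more rule genes, the 9 members among them and 7 cells kept out only by Ly6c2, Chil3 or Vcan UMIs. The members with 2 or 3 rule genes therefore lay with macrophage and other clusters, and those with 6 or 7 lay together.

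On AngII the members also lay in several clusters. Of 18 clusters 12 held members, and no cluster held more than 26 of 118 (22.0%, 14.9 to 30.6%), a number reached by the cluster led by Fscn1, Ifitm1 and Ccr7 and by the largest cluster, whose leading genes were immunoglobulin genes with Cxcl9. A further 23 members lay in the cluster led by Gas6, Stab1 and Cd163, and 10 in the one led by Xcr1, Itgae and Clec9a. Of the 9 members with 4 or more rule genes 4 lay in the cluster led by Chil3, Vcan and Thbs1, 3 in the largest cluster and 1 in each of a further pair. A further 9 members lay in the cluster led by Retnla, Mucl1 and Ear2, 4 in the one led by Cstdc4, S100a8 and S100a9, 4 in the one led by Pclaf, Mki67 and Top2a, 2 in the one led by Cxcl10, Ifit3 and Ifit2, and 1 in the one led by Mcpt4 and Cma1. The rule thus gathered cells from clusters of many kinds on AngII.

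**Figure D4:**
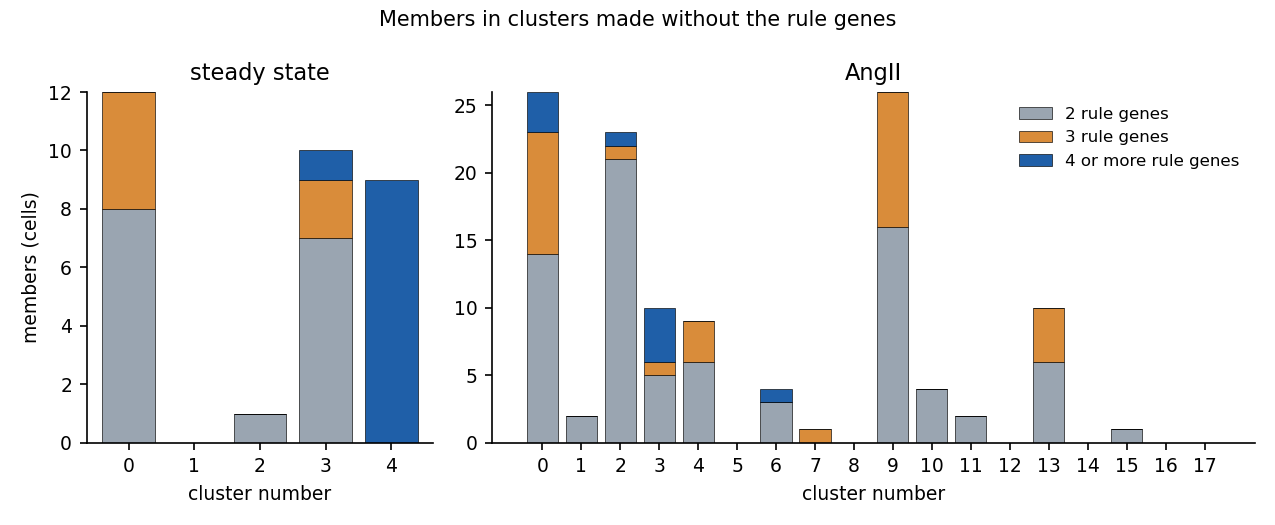
Number of members per cluster, coloured by the number of rule genes, at steady state and on AngII, with each cluster shown by its number. At steady state cluster 4 is the one led by S100a8, Gngt2 and Plac8. On AngII cluster 0 is the largest, cluster 9 is led by Fscn1, Ifitm1 and Ccr7, and cluster 3 by Chil3, Vcan and Thbs1. At steady state 9 of the 10 members with 4 or more rule genes fall in 1 cluster that holds no other member, and on AngII the members fall in 12 of 18 clusters.

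The members as a whole were next set against the other myeloid cells of the AngII library, 2485 cells that met the same conditions on myeloid, lymphocyte and neutrophil genes. Of 7264 tested genes 81 (1.12%) were at least 2 times higher in the members and 175 (2.41%) were at least 2 times lower. The nonclassical monocyte genes outside the rule did not stand apart, with 0 of 23 tested genes at least 2 times higher, 2 lower and a median ratio of 1.12 against 0.944 over all tested genes. Their summed level was 3947 CPM in the members and 4463 CPM in the other myeloid cells. Itgal was at 57.3 against 46.9 CPM, Gngt2 at 217 against 187 CPM and Fcgr4 at 101 against 107 CPM, and Cebpb was lower at 681 against 1544 CPM. The median depth was 13228.5 UMIs in the members and 1033 in the other myeloid cells, and with every cell thinned to 1000 UMIs 745 genes could be tested, of which 1 was at least 2 times higher and 15 lower. Of the 81 higher genes at full depth 0 had enough UMIs to be tested after thinning, so the higher side was not checked at equal depth. Of the 175 lower ones 18 could be tested and all 18 stayed below 1.

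Among the genes that were higher in the AngII members at full depth were some of antigen presentation, dendritic cells and the cell cycle. H2-Oa, a regulator of MHC class II loading, was at 141 against 27.3 CPM, a ratio of 5.16 (4.29 to 6.21). Cd209a was at 432 against 124 CPM, Cd72 at 236 against 62.3 CPM, Klrd1 at 125 against 32.4 CPM and Traf1 at 219 against 67.5 CPM. Of the type 2 dendritic cell list 4 of 7 tested genes were at least 2 times higher, of the migratory dendritic cell list 3 of 4, with Fscn1 at 88.8 against 7.75 CPM and at least 3 UMIs of the list in 7 of 118 members, and of the type 1 list 0 of 8. The MHC class II list had 2 of 8 genes at least 2 times higher, Ciita and H2-DMb2, a median ratio of 1.72 and a summed level of 52103 against 31037 CPM.

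The natural killer list had 2 of 2 tested genes at least 2 times higher, at a summed level of 299 against 113 CPM. Of its 10 genes 6 had 0 UMIs in the members, namely Ncr1, Nkg7, Gzma, Prf1, Eomes and Klra8. The list is therefore not read as a natural killer identity of the members. The mast cell list also had 2 of 2, with 356 of its 357 UMIs in 1 member. Cycling genes were a further group on the higher side. Of 7 tested cycling genes 5 were at least 2 times higher, among them Mki67 (110 against 29.9 CPM), Top2a (134 against 37.1 CPM) and Birc5 (66.1 against 18.4 CPM). Kif11 (40.9 against 8.85 CPM) and the histone genes H2ac8 (132 against 22.0 CPM), H1f5 (116 against 24.8 CPM) and Hist1h2ap (43.4 against 10.2 CPM) were also named. Few members carried them, since Top2a had a UMI in 15 of 118 members and Birc5 in 9.

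Of the cytokine list 7 of 18 tested genes were at least 2 times lower in the AngII members and 2 higher, and of the resident macrophage list 1 of 17 lower and 0 higher. Among single genes Spp1 was at 123 against 1036 CPM, Thbs1 at 121 against 759 CPM and Vegfa at 5.04 against 62.5 CPM. Of the classical monocyte genes outside the rule 8 of 14 were at least 2 times lower, with a median ratio of 0.473, among them Hp (22.7 against 140 CPM) and Fn1 (343 against 1481 CPM). The members held 0 UMIs of Ly6c2, Chil3 and Vcan by the rule, and the part of this condition in the lower classical genes was not tested. Cxcl3 (2.52 against 101 CPM), Inhba (3.15 against 54.6 CPM), Cd209f (1.26 against 29.6 CPM), F10 (5.67 against 67.3 CPM), Gpnmb (0.630 against 18.4 CPM), Retnla (280 against 1567 CPM), S100a8 (39.0 against 251 CPM) and Slpi (4.41 against 44.5 CPM) were other named genes on this side. Without the members that held 2 or more UMIs of natural killer, dendritic cell or C1q genes 9 members were left, 23 of 150 tested genes passed 2 times, and Cebpb, at a ratio of 2.27, was on the higher side. Of the 19720 UMIs of these 9 members 13241 lay in 2 cells with 4 or more rule genes, so this direction rests mainly on 2 cells.

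At steady state the same contrast, against 128 other myeloid cells, gave 64 of 4135 genes (1.55%) at least 2 times higher and 117 (2.83%) at least 2 times lower. Of the nonclassical monocyte genes outside the rule 4 of 21 were at least 2 times higher, Itgax (105 against 50.8 CPM), Fcgr4 (70.3 against 25.7 CPM), Dusp16 (68.5 against 26.9 CPM) and Bcl2 (91.9 against 28.6 CPM), with 0 lower and a median ratio of 1.64 against 0.990 over all tested genes. The summed level of the list was 6136 CPM in the members and 6179 CPM in the other myeloid cells, so the sum was not higher. The other myeloid cells included the 8 cells with 4 or more rule genes that held Ly6c2, Chil3 or Vcan UMIs, in which the list was at 14458 CPM. The highest ratios were again those of histone and cycling genes, with H1f5 at 467 against 6.42 CPM, with a UMI in 7 of 32 members, and Top2a at 272 against 21.6 CPM in 5 of 32. Of the lower genes Retnla was at 4292 against 12880 CPM, Timd4 at 18.0 against 91.6 CPM and Gas6 at 178 against 437 CPM, while of the list of resident macrophage genes 3 of 18 were at least 2 times lower. Nonclassical genes at least 2 times higher in the members were thus 4 at steady state and 0 on AngII, and this difference was not tested.

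Ly6c2 monocytes are the class from which nonclassical monocytes are known to arise, and 162 cells of the AngII library were taken as such (at least 1 Ly6c2 UMI, at least 2 of Ly6c2, Chil3 and Vcan together, fewer than 2 rule genes, median 1949.5 UMIs). The steady state library held 2 and was not compared. Of 5958 tested genes 286 (4.80%) were at least 2 times higher in the members and 274 (4.60%) were at least 2 times lower. With every cell thinned to 1000 UMIs 749 genes could be tested, of which 12 were at least 2 times higher and 44 lower. After thinning 18 of the 286 higher genes could be tested and all 18 stayed above 1. The lower side had 50 of 274 that could be tested, and all 50 stayed below 1. The nonclassical monocyte genes outside the rule had 4 of 20 genes higher, Itgax (109 against 39.2 CPM), Stap1 (115 against 55.1 CPM), Hfe (182 against 84.1 CPM) and Pglyrp1 (44.1 against 5.61 CPM). Cebpb was lower, at 681 against 3044 CPM, and the list had a median ratio of 1.10 against 0.963 over all tested genes, with a summed level of 3947 against 5923 CPM.

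Most tested genes of the dendritic, MHC class II and cycling lists were on the higher side. The MHC class II list had 7 of 8 genes at least 2 times higher and a median ratio of 3.25, the type 1 dendritic cell list 7 of 8 and the type 2 list 7 of 7, and cycling genes 6 of 7. Ccr7, which guides dendritic cells to lymph nodes, was at 74.9 against 0.934 CPM, and Il4i1 at 63.6 against 1.87 CPM. Mki67 was at 110 against 4.67 CPM, Top2a at 134 against 6.54 CPM, Ube2c at 41.6 against 0.934 CPM and Prc1 at 37.8 against 0.934 CPM. Nusap1 had 52 UMIs in the members and 0 in the Ly6c2 monocytes, at least 11.7-fold higher at the floor and 9.17-fold by the exact interval.

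Classical monocyte genes outside the rule were lower in the members, 10 of 14 at least 2 times, with a median ratio of 0.306. The Ly6c2 monocytes were chosen for UMIs of Ly6c2, Chil3 and Vcan, and the members for 0 of them. The part of this choice in the lower genes was not tested. Hp was at 22.7 against 426 CPM and Plac8 at 297 against 1203 CPM. Thbs1 was at 121 against 1998 CPM and Spp1 at 123 against 1109 CPM. Other named genes were Dmkn (2.52 against 124 CPM), Saa3 (5.67 against 146 CPM), Clec4d (30.2 against 338 CPM), Tarm1 (6.30 against 95.3 CPM) and Nrg1 (3.78 against 67.3 CPM). Without the members that held 2 or more UMIs of natural killer, dendritic cell or C1q genes, 31 of 161 tested genes passed 2 times, 1 higher and 30 lower. The MHC class II genes were then on the lower side, with Cd74 at a ratio of 0.329 and H2-Ab1 at 0.258. Cebpb, at 1.15, and Clec4d, at 1.35, were then above 1. These directions rest on the same 9 members, 4 of them with under 1000 UMIs, and mainly on the 2 with 4 or more rule genes. The step had removed cells with dendritic cell or C1q UMIs.

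Members on AngII were compared with members at steady state to describe how the cells that the rule finds differ between the conditions. Of 3936 tested genes 175 (4.45%) were at least 2 times higher on AngII and 182 (4.62%) were at least 2 times lower. Condition, library and the mixture of cells that the rule took from each library cannot be told apart. Members with 4 or more rule genes held 21.6% of the members' UMIs at steady state and 6.09% on AngII.

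The nonclassical monocyte genes outside the rule were lower in the AngII members, 9 of 20 at least 2 times and 0 higher, with a median ratio of 0.568 against 0.985 over all tested genes. Itgal was at 57.3 CPM on AngII against 166 CPM, Nr4a1 at 257 against 593 CPM, Klf2 at 327 against 885 CPM and Klf4 at 306 against 737 CPM. Cd36 was at 68.6 against 333 CPM and Bcl2, a survival gene, at 20.1 against 91.9 CPM. Gngt2 was at 217 against 236 CPM, a ratio of 0.917 (0.748 to 1.13), and did not differ beyond counting error.

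Resident macrophage genes were also lower in the AngII members, 7 of 16 at least 2 times, with a median ratio of 0.550. Lyve1 was at 75.5 against 436 CPM, Cd163 at 67.4 against 434 CPM, Folr2 at 111 against 315 CPM and Pf4 at 615 against 1723 CPM. Ms4a7 was the 1 gene of the list at least 2 times higher, at 317 against 117 CPM, and among members with at least 3 rule genes its ratio was 0.925. Retnla was at 280 against 4292 CPM, and Ccl24 (27.7 against 254 CPM), Lyz1 (108 against 750 CPM), Hpgd (69.3 against 332 CPM), F13a1 (257 against 1060 CPM), H4c4 (34.0 against 166 CPM), H2ac8 (132 against 541 CPM) and Hist1h2ap (43.4 against 451 CPM) were other named genes on the lower side.

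Genes of migratory dendritic cells were on the higher side on AngII, with single genes of other kinds. Ifitm1 was at 409 against 3.61 CPM, a ratio of 114 (31.3 to 939), with a UMI in 33 of 118 members. Ccl5, Ccr7, Mmp14 and Itgae had 0 UMIs at steady state and were at least 30.7-fold, 13.9-fold, 11.5-fold and 9.20-fold higher at the floor, or 24.8-fold, 11.1-fold, 9.20-fold and 7.31-fold by the exact intervals. Ccr7 came from 5 members. Fabp5 was at 448 against 36.1 CPM, Spp1 at 123 against 5.41 CPM, Thbs1 at 121 against 3.61 CPM, Spint1 at 59.2 against 1.80 CPM, Cd72 at 236 against 27.0 CPM, S100a9 at 50.4 against 1.80 CPM and Il4i1 at 63.6 against 3.61 CPM. All 3 tested migratory dendritic cell genes were at least 2 times higher on AngII, and 3 of 6 tested type 1 dendritic cell genes.

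Cytokine and interferon genes lay on both sides. Of 13 tested cytokine genes 4 were at least 2 times higher, Il1b (1061 against 292 CPM), Ccl4 (390 against 73.9 CPM), Cxcl16 (326 against 99.1 CPM) and Ccl5, and 3 were at least 2 times lower, Cxcl2 (472 against 1085 CPM), Ccl2 (385 against 1069 CPM) and Ccl7 (314 against 723 CPM). Of 10 tested interferon-stimulated genes 4 were at least 2 times higher, Irf7 (81.2 against 7.21 CPM), Oasl2 (60.4 against 7.21 CPM), Ifi205 (139 against 34.2 CPM) and Bst2 (283 against 123 CPM), while Cxcl9 was at 3.78 against 287 CPM. The MHC class II list had 0 of 8 genes past 2 times, with a median ratio of 1.39 and a summed level of 52103 against 39590 CPM. Of 15 immediate early genes 4 were at least 2 times lower on AngII, and Jun was at 577 against 1637 CPM. With every member thinned to 1000 UMIs 220 genes could be tested between the conditions, of which 13 were at least 2 times higher on AngII and 9 lower.

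Because Ace encodes the enzyme that makes angiotensin II, other genes of this hormone system were read in the members. Agt, Ren1, Mas1 and the receptor genes Agtr1a, Agtr1b and Agtr2 had 0 UMIs in the members of both libraries, which allows up to 5.41 CPM at steady state and 1.89 CPM on AngII for each. Of the genes that were detected, Ctsd, a lysosomal protease, was at 419 CPM on AngII against 191 CPM at steady state, Prcp at 205 against 180 CPM, and Lnpep at 112 against 157 CPM. In members with 4 or more rule genes Lnpep, an aminopeptidase that also binds angiotensin IV, was at 207 CPM on AngII and 242 CPM at steady state. Neither the hormone precursor nor its receptors were thus detected in the members at this depth.

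The EYFP reporter was detected in the members of both libraries. At steady state EYFP was at 157 CPM with a UMI in 16 of 32 members (50%). The shares were 59.4% of other myeloid cells, 77.5% of macrophages with at least 2 of Lyve1, Folr2, Cbr2 and Cd163, and 9.43% of lymphocytes. On AngII it was at 86.9 CPM with a UMI in 27 of 118 members (22.9%), against 10.2%, 29.2% and 5.70% in these classes. After thinning to 1000 UMIs the members' shares were 21.9% at steady state, with 0 left out, and 4.95% on AngII, with 17 left out, against 3.81% and 2.16% of lymphocytes with 1 and 150 left out. Thinned shares at steady state were 12.7% of other myeloid cells, with 2 left out, and 17.0% of the macrophages, with 1 left out, so the order against the members turned with depth. The AngII members' share after thinning is based on 5 of 101 cells, and the macrophages had 17.4% with 71 left out. Other myeloid cells on AngII had 6.91% with 1197 left out, at 57.0 CPM. For these and the members the share and the CPM give different orders, and none is read from them.

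EYFP was detected in members of each class of rule gene number. Members with 4 or more held it in 3 of 10 cells at steady state and 2 of 9 on AngII, and members with 2 in 8 of 16 and 22 of 80. Of the cells with 6 or 7 rule genes 2 of 9 at steady state and 0 of 2 on AngII held EYFP.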

How the data were processed

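The authors deposited UMI counts per gene and barcode from Cell Ranger 3.1.0 on GRCm38.p6 with the eYFP sequence added, for 55386 features, with barcodes already called as cells. Cells were filtered and members chosen by the stated rule. The members, gene lists and comparisons were chosen with earlier results of these data known. UMIs were summed per group and scaled to CPM, and ratios had exact Poisson intervals, with no test because each condition was 1 library. Genes with at least 20 expected UMIs in the smaller group were compared at 2 times. Named genes were 12 at each end of the ratios, ranked by the interval bound nearest 1, without rule, mitochondrial, ribosomal and sex-linked genes, a raised gene needing a UMI in at least 5 cells and no cell with most of its UMIs. Genes of the fixed lists and EYFP could also be named. The comparison of members with 4 or more and 2 rule genes was added after the data were seen. Clustering used Seurat 5.3.0 with sctransform 0.4.2 in R 4.3.3 (20 principal components, resolution 0.4, mitochondrial share and cell cycle scores regressed out). Counts were handled with Python 3.11.15, NumPy 2.4.6, SciPy 1.17.1 and pandas 2.3.3, and the ratio step was tested on simulated counts. There the comparisons of 4 or more against 2 rule genes did worse than the others. More of their unchanged genes passed 2 times, and fewer of the intervals held 1. The genes changed in the simulation also shifted the group totals, and they were a larger part of the tested genes in these comparisons. The simulation therefore cannot show how much of this belongs to the comparisons themselves. No doublet caller was run and free RNA was not removed. Alternatives changed the cell filter, the rule, the depth, the fold, the minimum UMIs and the clustering. Reads and spliced counts were not analysed here.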

Additional observations from a re-analysis of the deposited data

Results flagged for a closer look

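Cells with 4 or more rule genes were also found outside the rule, in cells that the comparisons did not use as members. At steady state 8 such cells were outside only because they held Ly6c2, Chil3 or Vcan UMIs, and on AngII 13 were. Their Ace level was 673 CPM at steady state and 406 CPM on AngII, their Itgal level 866 and 727 CPM, and their Gngt2 level 1159 and 1178 CPM, each with the classical monocyte gene Plac8 at 3436 and 4048 CPM. C1qa was at 6.66 and 91.8 CPM in them and H2-Ab1 at 1598 and 1515 CPM. A further 23 AngII cells with 4 or more rule genes were outside because of lymphocyte or neutrophil UMIs, 17 with Cd3 or Cd79 UMIs and 9 with Cxcr2 or Retnlg, at a median of 17457 UMIs.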

How the results depend on the processing

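No paired analysis was possible because each condition was 1 library. The cause of the differences below was not tested, except that fewer members and fewer tested genes follow from the stricter settings.

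The share of members was 6.38% on AngII with at least 1000 genes per cell. At steady state and on AngII it was 5.23% and 0.905% with at least 3 rule genes, 4.25% and 0.715% without Spn and Pou2f2 in the rule, 3.63% and 0.787% with cells thinned to 1000 UMIs before the rule, 0% (up to 1.20%) and 0.214% without members holding natural killer, dendritic cell or C1q UMIs, and 3.27% and 0.214% with at least 4 rule genes. Genes past 2 times against other myeloid cells, against Ly6c2 monocytes and between conditions (256, 560 and 357) were 2, 7 and 15 with cells thinned before the rule, 67, 94 and 154 with at least 4 rule genes, 964, 1443 and 1063 at 1.5 times, 110, 269 and 127 with at least 50 expected UMIs, and 16, 56 and 22 with levels thinned. Without members holding natural killer, dendritic cell or C1q UMIs the first pair was 23 and 31, and no count between conditions could be had because 0 steady state members were left. Members with 4 or more against 2 rule genes gave 14 genes at steady state and 1 on AngII with levels thinned, in place of 181 and 73, 43 on AngII with at least 5 rule genes in the upper class, and 95 (23 higher and 72 lower) at steady state without the 3 deepest cells of the upper class. On AngII that setting gave 50, of which 10 were higher and 40 lower, in place of 24 and 49. The balance of directions moved also where the total did not. Against other myeloid cells 81 genes were higher and 175 lower, in place of which there were 34 and 216 with at least 3 rule genes and 25 and 249 without Spn and Pou2f2. Against Ly6c2 monocytes 286 and 274 became 146 and 325, and 94 and 322. With levels thinned the 16 genes against other myeloid cells were 1 higher and 15 lower, and the 56 against Ly6c2 monocytes were 12 and 44. With at least 4 rule genes the 67 were 12 higher and 55 lower, and the 94 were 18 and 76. Without members holding natural killer, dendritic cell or C1q UMIs the 23 were 3 higher and 20 lower, and the 31 were 1 and 30. The largest share of AngII members in 1 cluster was 31.6% with at least 3 rule genes. The settings with at least 4 rule genes, the alternatives of the comparison of 4 or more against 2 rule genes and those of the steady state clusters were chosen after seeing the data. The remaining alternatives for these results, among them all barcodes kept, 1 UMI of Ly6c2, Chil3 or Vcan allowed, the deepest member left out and another clustering resolution, stayed within the interval of a share or within 1.5 times of a total count, and leaving out shared barcodes changed nothing because there were 0.

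Of 940 recomputed ratios of named and listed genes 464 stayed within the interval of the main ratio. A further 463 lay outside it, on the same side of 1 or for a gene not past 2 times. With levels thinned 56 stayed within it and 184 lay outside it. The remaining 13 of the 940 went to the other side of 1 for a gene past 2 times. Outside this count, between members with 4 or more and 2 rule genes, Retnla at steady state was at 0.700 with levels thinned, and on AngII without the 3 deepest cells C1qb was at 1062 against 2543 CPM and Pltp at 488 against 521 CPM. Without members holding natural killer, dendritic cell or C1q UMIs, the ratios to other myeloid cells were 2.27 for Cebpb and 1.17 for Plac8, and those to Ly6c2 monocytes were 0.329 for Cd74, 0.341 for H2-Aa, 0.258 for H2-Ab1, 0.299 for H2-Eb1, 0.273 for H2-DMb1, 1.15 for Cebpb and 1.35 for Clec4d. With at least 3 rule genes the ratios between conditions were 0.436 for Ccr1 and 0.925 for Ms4a7. Between members with 4 or more and 2 rule genes at steady state, Fn1 was at 0.0249 without the cell with most of its UMIs. Klf4 was at 0.847 there with levels thinned, with too few UMIs to be tested. Depth limits the AngII library, where 44.6% of barcodes had fewer than 1000 UMIs.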

Other observations

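Further gene groups were read in the members. Markers of other cell types were at low summed levels for T cells outside the rule (50.5 CPM at steady state and 6.30 CPM on AngII, most abundant gene Cd2), eosinophils (1.80 and 3.15 CPM, Siglecf), stromal cells (3.61 and 6.93 CPM, with Dcn first at steady state and Kdr on AngII) and red cells and platelets (21.6 and 6.93 CPM, with Hba-a1 first at steady state and Ppbp on AngII). Where a pair is named, the first gene led at steady state and the second on AngII. B cell genes outside the rule were at 166 and 113 CPM (Ighm), plasmacytoid dendritic cell genes at 276 and 164 CPM (Tcf4), neutrophil genes at 64.9 and 140 CPM (Mmp9, then S100a9) and innate lymphoid cell genes at 227 and 76.8 CPM (Il1rl1, then Il7r). Natural killer genes were at 66.7 and 299 CPM (Klrd1, then Ccl5), type 1 dendritic cell genes at 366 and 627 CPM (Wdfy4), type 2 dendritic cell genes at 1950 and 1332 CPM (Mgl2, then Cd209a) and migratory dendritic cell genes at 12.6 and 280 CPM (Ccl22, then Fscn1). Mast cell genes were at 1179 and 225 CPM, and 1 cell of each library held 654 of 654 and 356 of 357 of these UMIs.

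Among functional lists, the members had Fc receptor genes at 2886 CPM at steady state and 3534 CPM on AngII, led by Fcer1g, survival genes at 1797 and 1746 CPM, led by Mcl1, and complement genes at 7506 and 7112 CPM, led by C1qa at steady state and C1qb on AngII. Lipid handling genes were at 1552 and 1473 CPM, TREM and CD300 family genes outside the rule at 813 and 1100 CPM, and the adhesion receptor genes Adgre1 and Adgre5 together at 521 and 369 CPM. Within the steady state members Cd300a was at 442 CPM in cells with 4 or more rule genes against 135 CPM in cells with 2, and Adgre5 at 701 against 194 CPM, relatives of the rule genes Cd300e and Adgre4. Il1b had the same order there, at 834 against 118 CPM.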
